A study of Mus musculus with 4 samples.

Results

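The receptors described here are the 7 genes that encode the mouse receptors for vascular endothelial growth factors (VEGF) and angiopoietins: *Kdr*, *Flt1* and *Flt4*, the VEGF receptor tyrosine kinases, *Tek* and *Tie1*, the TIE receptor tyrosine kinases, and *Nrp1* and *Nrp2*, the neuropilin coreceptors. They were chosen by symbol, and 7 of 7 were found among the 33696 genes of both count matrices. The matrices came from 5′ single-cell RNA sequencing of CD45+ cells from livers of 2-month-old mice that carried *Stab2-CrexERT2* and an *R26-LSL-tdT* reporter. Tamoxifen had been given at E9.5, so that the permanent tdTomato label marks cells that used the *Stab2* locus at that stage and their descendants. The CD45+tdTomato+ library had 17957 barcodes and the CD45+tdTomato- library 18444. There was 1 library per sort, and the sorts were also separate batches (batch 1 for tdTomato+ and batch 2 for tdTomato-), so sort and batch cannot be told apart. The label of the second library says only "control", and the design text gives the tdTomato- sort. No comparison below has replicates, no p-value is given, and the intervals (95%, exact Poisson for levels, exact binomial for shares and exact conditional for ratios) cover counting error only.

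VEGFs and angiopoietins are secreted factors by which tissues control the growth, permeability and stability of their vessels. *Kdr* (VEGFR2) is the main signalling receptor for VEGF-A in endothelium, *Flt1* (VEGFR1) binds VEGF-A, VEGF-B and placental growth factor and acts largely as a decoy, and *Flt4* (VEGFR3) binds VEGF-C and VEGF-D and is best known from lymphatic endothelium, although liver sinusoids carry it too. *Tek* (TIE2) is the receptor of the angiopoietins and *Tie1* its partner without a well-defined ligand of its own, while the neuropilins bind both VEGFs and class 3 semaphorins and occur on some immune cells as well. Liver sinusoidal endothelial cells line the fenestrated capillaries that run from the portal tracts (periportal) to the central veins (pericentral), and they depend on these receptors for growth and regeneration.

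The 7 genes lie on 5 chromosomes (GRCm38, GENCODE M21). *Kdr* (ENSMUSG00000062960) spans chr5:75932827-75978458 on the minus strand and *Flt1* (ENSMUSG00000029648) chr5:147561604-147726011 on the minus strand. *Flt4* (ENSMUSG00000020357) spans chr11:49609263-49652739 on the plus strand. *Tek* (ENSMUSG00000006386) spans chr4:94739289-94874976 on the plus strand and *Tie1* (ENSMUSG00000033191) chr4:118471191-118490061 on the minus strand. *Nrp1* (ENSMUSG00000025810) spans chr8:128358604-128503363 and *Nrp2* (ENSMUSG00000025969) chr1:62703285-62818695, both on the plus strand. Reads of a 5′ library cannot separate the soluble from the full-length form of *Flt1*, which differ at their 3′ ends.

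Because reads of this kit start at the 5′ ends of transcripts, the promoters of 4 of the 7 receptors are printed, 250 bases before to 50 bases after the RefSeq start, 5′ to 3′ on the strand of the gene (GRCm38.p6). Capitals mark GGAA or its reverse complement TTCC, the core that ETS family factors recognise. The windows are chr5:75978406-75978705 for *Kdr*, chr5:147725962-147726261 for *Flt1*, chr4:118489800-118490099 for *Tie1* and chr8:128358823-128359122 for *Nrp1*.
Kdr: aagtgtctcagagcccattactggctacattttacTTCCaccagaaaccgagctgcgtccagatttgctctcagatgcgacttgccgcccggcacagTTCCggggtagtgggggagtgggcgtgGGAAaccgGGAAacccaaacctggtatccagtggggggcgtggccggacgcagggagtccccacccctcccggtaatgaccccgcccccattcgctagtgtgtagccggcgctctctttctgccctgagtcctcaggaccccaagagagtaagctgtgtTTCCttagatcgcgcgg
Flt1: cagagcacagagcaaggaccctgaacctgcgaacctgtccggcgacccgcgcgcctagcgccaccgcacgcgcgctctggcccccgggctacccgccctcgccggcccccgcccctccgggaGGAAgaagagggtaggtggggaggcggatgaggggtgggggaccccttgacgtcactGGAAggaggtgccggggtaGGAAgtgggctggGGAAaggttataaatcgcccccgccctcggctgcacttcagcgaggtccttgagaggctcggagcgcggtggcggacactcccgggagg
Tie1: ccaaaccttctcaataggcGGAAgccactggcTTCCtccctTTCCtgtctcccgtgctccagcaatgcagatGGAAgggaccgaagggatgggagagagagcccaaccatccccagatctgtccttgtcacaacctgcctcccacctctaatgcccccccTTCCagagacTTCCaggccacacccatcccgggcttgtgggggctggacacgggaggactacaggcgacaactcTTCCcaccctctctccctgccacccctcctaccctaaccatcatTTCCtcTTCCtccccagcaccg
Nrp1: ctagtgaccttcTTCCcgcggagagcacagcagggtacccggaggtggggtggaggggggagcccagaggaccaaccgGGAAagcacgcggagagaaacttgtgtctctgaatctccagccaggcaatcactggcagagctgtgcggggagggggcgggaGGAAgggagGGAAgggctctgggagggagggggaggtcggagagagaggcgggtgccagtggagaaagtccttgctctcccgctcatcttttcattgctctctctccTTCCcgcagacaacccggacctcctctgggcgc
The core was present 9 times in the *Tie1* window, 5 times in those of *Kdr* and *Nrp1*, 4 times in that of *Flt1*, 2 times in those of *Flt4* and *Tek* and 1 time in that of *Nrp2*. So short a motif is common, and 96.0% of the 32851 mouse promoter windows of this length held it at least once (median 3 per window). The letters TATAAA or their reverse complement stood in the window of *Flt1* and in none of the other 6, and 13.6% of all windows held them. GGGCGG or its reverse complement, the Sp1 type of GC box, was in 5 of the 7 windows and missing from those of *Tek* and *Tie1*, against 35.7% of all windows. The share of G and C was 52.0% in the window of *Tek* and 70.7% in those of *Flt1* and *Nrp2*, with the other 4 between them.

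Droplets were assigned to classes by the summed level of marker genes in each droplet, and no marker was one of the 7 receptors. Sinusoidal endothelial cells were droplets with at least 1500 counts per 1000000 UMIs (CPM) of an 8-gene panel (*Clec4g*, *Oit3*, *Gpr182*, *Ehd3*, *Egfl7*, *Cdh5*, *Bmp2* and *Mmrn2*) and below the limits for immune and large-vessel markers. There were 6664 such cells in the tdTomato+ library (38.1% of its 17509 kept cells, median 7548 UMIs) and 14 in the tdTomato- library (0.077% of 18173). Their label held against genes the panel did not use, with *Stab2* at 3466 CPM, *Dnase1l3* at 2921 CPM, *Fcgr2b* at 3374 CPM and *Lyve1* at 659.8 CPM in the tdTomato+ library. The sort was for CD45, yet *Ptprc*, which encodes CD45, had a UMI in 677 of these 6664 cells (10.2%, 9.44 to 10.9). T cell droplets fell on both sides of the endothelial limit. In the tdTomato+ library 3658 of 6764 T cell droplets (54.1%) also passed the endothelial limit, against 46 of 14603 (0.315%) in the tdTomato- library, and they are described apart from T cells with low endothelial RNA. Barcodes shared by both libraries numbered 84, and doublets were not removed.

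In sinusoidal endothelial cells all 7 receptors were expressed, with *Nrp1* and *Kdr* at the top and *Tie1* at the bottom. In the tdTomato+ library *Nrp1* was at 1631 CPM (1620 to 1641), and 98.1% of cells had a UMI of it. *Kdr* was at 1527 CPM (1517 to 1537), with a UMI in 97.8% of cells. *Flt4* followed at 663.4 CPM (656.6 to 670.2) and *Flt1* at 646.3 CPM (639.6 to 653.0). These receptors for the VEGF-C and VEGF-A branches thus stood within a few percent of each other, and both were below *Kdr*. *Nrp2* was at 510.8 CPM (504.9 to 516.8). *Tek* was at 391.3 CPM (386.2 to 396.6) and *Tie1* at 232.1 CPM (228.1 to 236.2), so the TIE receptors were the least abundant of the family. No 2 neighbours in this order had overlapping intervals. In the 14 cells of the tdTomato- library the values were 1640 CPM for *Nrp1*, 1427 CPM for *Kdr*, 706.6 CPM for *Flt1*, 586.6 CPM for *Nrp2*, 493.3 CPM for *Flt4*, 400.0 CPM for *Tek* and 253.3 CPM for *Tie1*. With so few cells 5 of the 6 neighbouring pairs there had overlapping intervals, and only *Kdr* and *Flt1* did not.

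As a background for shares, B cells had a median depth of 6268 UMIs in the tdTomato+ library, and a UMI of *Kdr* was found in 1.498% of them (0.410 to 3.79) and a UMI of *Nrp1* in 3.37% (1.55 to 6.30). B cells of the tdTomato- library (median 5768 UMIs) had a UMI of *Nrp1* in 1.153% (0.315 to 2.93) and none of *Kdr* in 347 cells, where 3 counts are 1.30 CPM.

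**Figure D1:**
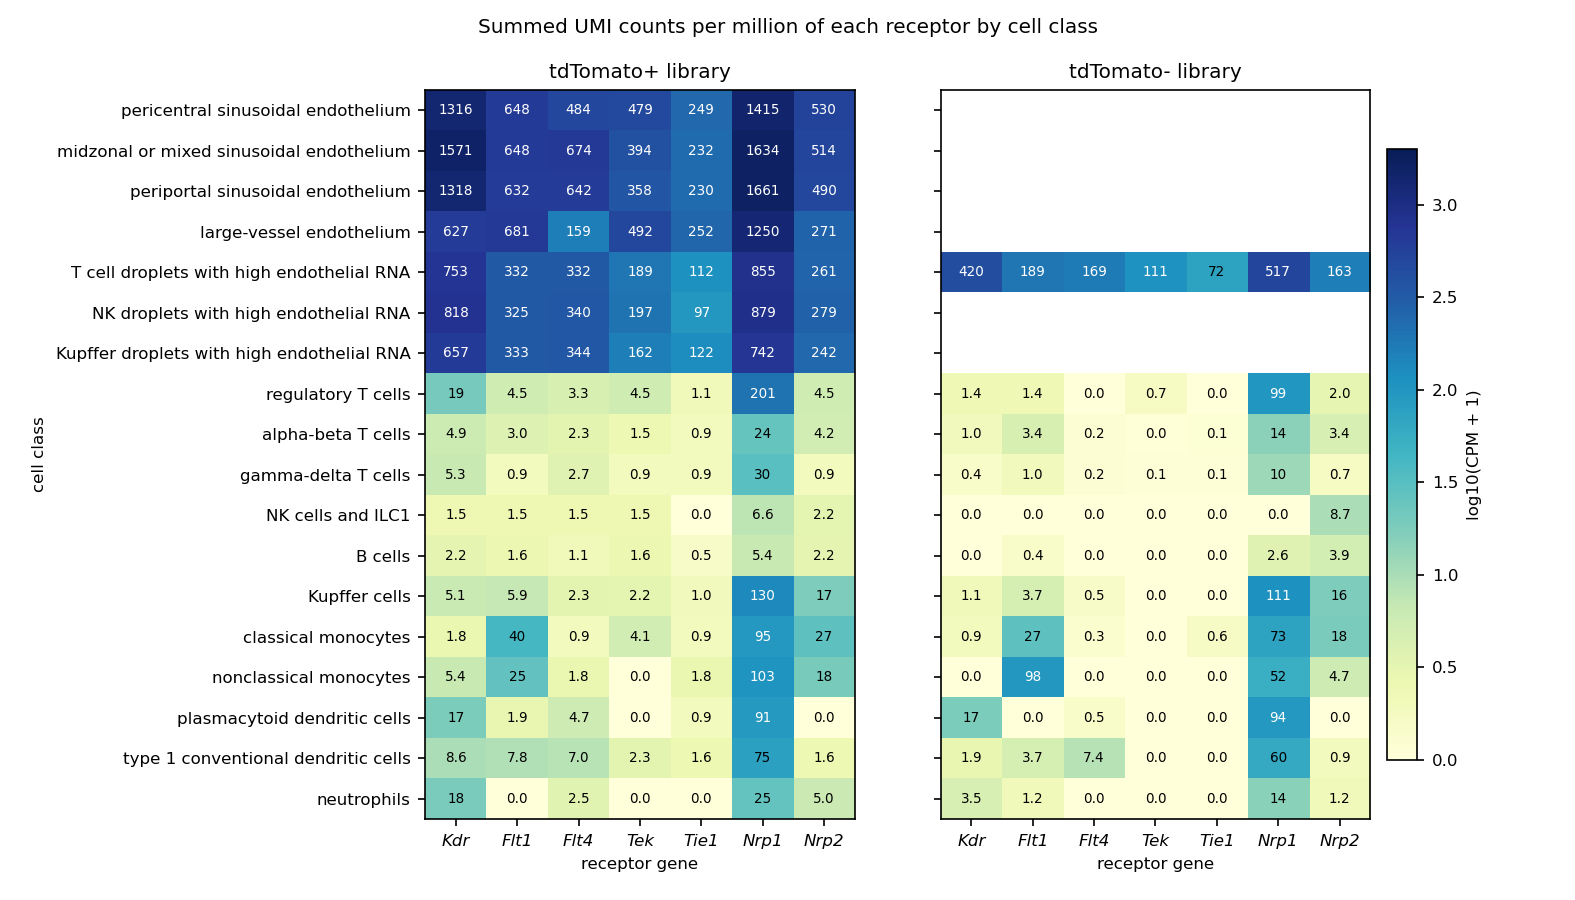
Level of the 7 receptors (columns) in cell classes of at least 20 cells (rows), in CPM on a log colour scale, with the tdTomato+ library left and the tdTomato- library right and blank rows where a library had fewer cells. Endothelial classes and droplets with endothelial RNA carry all 7 genes. In most immune classes *Nrp1* is the highest of them, for example at 129.6 CPM in tdTomato+ Kupffer cells and 111.2 CPM in tdTomato- Kupffer cells. In the tdTomato- library *Nrp2* is highest in NK cells and B cells and *Flt1* in nonclassical monocytes, on few counts.

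Along the sinusoid the 7 receptors differed by less than 2-fold. Pericentral cells had at least 2 counts of *Wnt2*, *Wnt9b*, *Rspo3*, *Kit*, *Thbd* and *Cdh13* together and none of the periportal list *Dll4*, *Efnb2*, *Ltbp4*, *Msr1*, *Ntn4* and *Adam23*, and periportal cells the reverse. This gave 302 pericentral cells (median 5319 UMIs) and 1250 periportal cells (median 5955 UMIs) of the tdTomato+ library, and 5112 cells with both or neither. Of the 4630 genes at 50 CPM or more in either zone, 3.37% were 2-fold or more higher and 2.76% 2-fold or more lower in pericentral cells, and 0 of the 7 receptors were among them in either direction.

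*Flt4* had the strongest zonal difference downwards, at 483.7 CPM (452.2 to 516.8) in pericentral cells and 642.5 CPM (624.8 to 660.7) in periportal cells (log2 ratio -0.41, -0.52 to -0.31). *Tek*, the angiopoietin receptor, went the other way, at 478.7 CPM (447.4 to 511.7) in pericentral cells and 358.2 CPM (345.0 to 371.8) in periportal cells (log2 ratio 0.42, 0.31 to 0.53). *Nrp1* was at 1415 CPM (1360 to 1470) in pericentral cells and 1661 CPM (1633 to 1690) in periportal cells (log2 ratio -0.23, -0.29 to -0.17). These intervals left out equality, which means that the differences are larger than counting error in these pooled cells, not that they would repeat between animals. *Kdr* was at 1316 CPM in pericentral and 1318 CPM in periportal cells (log2 ratio -0.0019, -0.067 to 0.063). *Flt1* was at 648.4 CPM in pericentral and 632.5 CPM in periportal cells (log2 ratio 0.036, -0.057 to 0.13) and *Tie1* at 248.8 CPM and 230.1 CPM in the same order (log2 ratio 0.11, -0.040 to 0.26). For these 3 genes the interval held equality. *Nrp2* was at 529.6 CPM in pericentral cells and 490.0 CPM in periportal cells (log2 ratio 0.11, 0.0082 to 0.21), and its direction turned under other zone limits, to -0.036 with the wider gates described next and to -0.063 between the outermost bins.

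The strict gates kept shallow cells, so the zones were also read with looser limits and in bins. With at least 3 counts of one list and 3 times those of the other, 1700 pericentral cells (median 8262 UMIs) and 2976 periportal cells (median 7105.5 UMIs) entered. There *Flt4* was at 524.0 CPM in pericentral and 697.6 CPM in periportal cells, *Tek* at 460.1 CPM and 359.2 CPM and *Nrp1* at 1467 CPM and 1719 CPM in the same order. In 5 bins of the pericentral share of zone counts, chosen after the data had been seen, the cells per bin were 2519, 629, 518, 654 and 1377 from the periportal to the pericentral end. *Flt4* was at 690.5, 807.6, 750.3, 688.5 and 504.8 CPM in them and so had its highest level next to the periportal end and its lowest at the pericentral end. *Tek* was at 364.7, 348.8, 361.8, 416.1 and 475.1 CPM, with the higher values in the bins toward the central vein. *Kdr* was at 1461, 1732, 1698, 1672 and 1408 CPM, and *Nrp1* at 1724, 1792, 1700, 1553 and 1462 CPM. *Kdr* was thus highest in the 3 middle bins and lower at both ends, a shape that the comparison of the 2 ends does not show. The highest bin over the lowest was 1.60 for *Flt4*, 1.36 for *Tek*, 1.23 for both *Kdr* and *Nrp1*, 1.16 for *Nrp2*, 1.11 for *Flt1* and 1.08 for *Tie1*. The summed large-vessel markers *Vwf*, *Selp*, *Gja5*, *Sox17* and *Clu* were at 165.3, 139.9, 142.5, 180.8 and 365.5 CPM in the same bins, and their part in the values of the last bin was not tested. The 14 endothelial cells of the tdTomato- library included 4 pericentral and 3 periportal cells, too few for a comparison.

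**Figure D2:**
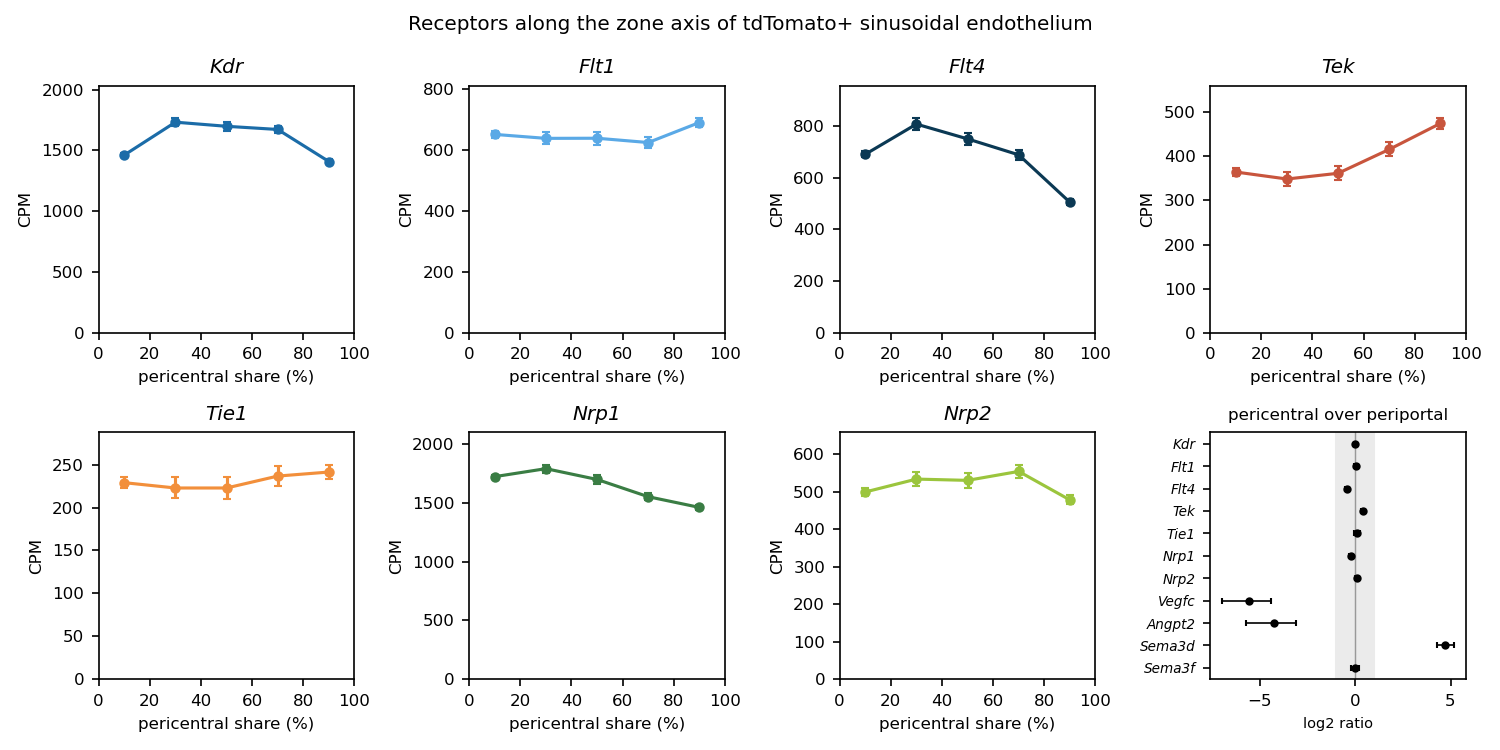
Level of each receptor (CPM, with 95% Poisson intervals) in 5 bins of the pericentral share of zone-marker counts, from the periportal end at the left to the pericentral end at the right, in sinusoidal endothelial cells of the tdTomato+ library. *Flt4* ends at 504.8 CPM at the pericentral end against 690.5 CPM at the periportal end, *Tek* at 475.1 CPM against 364.7 CPM, and *Kdr* peaks in the middle bins.

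Among ligands at 50 CPM or more in either zone, *Vegfc*, *Angpt2* and *Sema3d* differed more between the zones than the receptors did. The ligand *Vegfb* was nearly level, at 60.8 CPM in pericentral and 61.0 CPM in periportal cells. So was *Sema3f*, at 134.3 and 135.9 CPM in the same order. Of 46 pathway genes listed, 2 were gate genes and were left out, and 23 reached 50 CPM in either zone. Of these, 2 were 2-fold higher in pericentral cells, 3 were 2-fold lower and 18 neither. Their median log2 ratio was 0.0036, against 0.036 over all genes tested. Both medians cover only genes with counts in both zones, which leaves out *Esm1*. Over all 4630 genes tested in this comparison 3.37% were higher and 2.76% lower. *Vegfc*, the ligand of *Flt4*, was at 3.32 CPM in pericentral cells and 153.2 CPM in periportal cells (log2 ratio -5.53, -6.98 to -4.40). *Angpt2*, the angiopoietin that modulates *Tek* signalling from within endothelium, was at 3.32 CPM in pericentral and 62.4 CPM in periportal cells (log2 ratio -4.23, -5.69 to -3.10). *Esm1*, a gene known to respond to VEGF, had no counts in pericentral cells and 89.8 CPM in periportal cells. *Sema3d*, a class 3 semaphorin and neuropilin ligand, was at 160.9 CPM in pericentral and 6.10 CPM in periportal cells (log2 ratio 4.72, 4.27 to 5.20), and *Grb10*, an adaptor of tyrosine kinase receptors, at 174.1 CPM and 85.6 CPM in the same order (log2 ratio 1.02, 0.83 to 1.22). *Plxnd1*, the plexin that pairs with neuropilins, was just inside the limit at 349.9 CPM in pericentral and 621.8 CPM in periportal cells (log2 ratio -0.83, -0.95 to -0.71). *Ptprb*, the phosphatase that acts on TIE2 and VEGFR2, was at 3651 CPM in pericentral and 3961 CPM in periportal cells (log2 ratio -0.12, -0.16 to -0.079).

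In 425 large-vessel endothelial cells of the tdTomato+ library (median 9046 UMIs) *Kdr* and *Flt4* were lower than in sinusoidal cells, while *Flt1*, *Tek* and *Tie1* were not. These cells had at least 1500 CPM of the large-vessel markers, with *Selp* at 1728 CPM, *Rspo3* at 5163 CPM and *Stab2* at 469.1 CPM. *Flt4* was at 159.3 CPM (147.1 to 172.3) in large-vessel cells and 663.4 CPM in sinusoidal cells (log2 ratio -2.06, -2.17 to -1.94), with a UMI in 54.8% of large-vessel cells and 92.6% of sinusoidal cells. *Kdr* was at 626.7 CPM (602.3 to 651.9) in large-vessel cells and 1527 CPM in sinusoidal cells (log2 ratio -1.28, -1.34 to -1.23). *Nrp2* lay just inside 2-fold at 271.4 CPM in large-vessel and 510.8 CPM in sinusoidal cells (log2 ratio -0.91, -1.001 to -0.82), and *Nrp1* was at 1250 CPM and 1631 CPM in the same order (log2 ratio -0.38, -0.43 to -0.34). So 2 of the 7 receptors were 2-fold lower and 0 higher. Of 4728 genes at 50 CPM or more in either class, 6.66% were 2-fold lower and 5.37% higher in large-vessel cells. *Flt1* was at 681.0 CPM in large-vessel cells and 646.3 CPM in sinusoidal cells (log2 ratio 0.076, 0.019 to 0.13). *Tek* was at 491.6 CPM in large-vessel and 391.3 CPM in sinusoidal cells (log2 ratio 0.33, 0.26 to 0.40) and *Tie1* at 252.0 CPM and 232.1 CPM in the same order (log2 ratio 0.12, 0.024 to 0.21). Of the 22 pathway genes tested here 0 were higher and 2 lower. *Plxnd1* was at 240.9 CPM in large-vessel and 493.1 CPM in sinusoidal cells (log2 ratio -1.03), and *Nr4a1*, an immediate early gene induced by VEGF, at 10.4 CPM and 54.0 CPM in the same order (log2 ratio -2.38). In 7 large-vessel cells of the tdTomato- library *Flt4* was at 91.2 CPM (33.5 to 198.4), *Kdr* at 425.4 CPM (282.6 to 614.8) and *Flt1* at 835.5 CPM (629.4 to 1088).

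**Figure D3:**
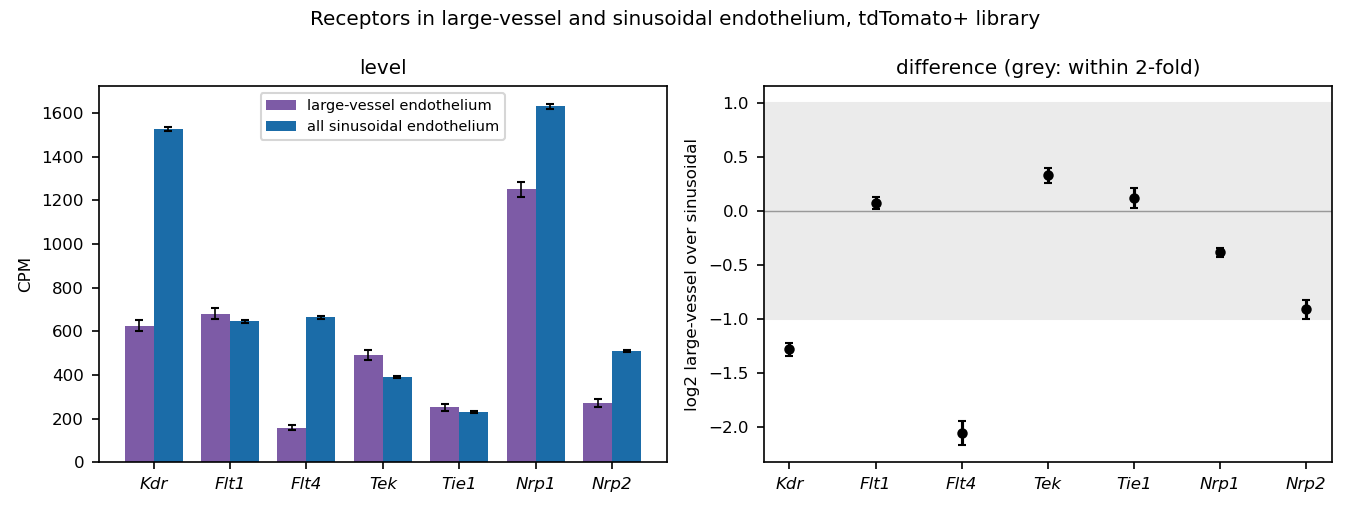
Left, level of each receptor (CPM, 95% Poisson intervals) in 425 large-vessel and 6664 sinusoidal endothelial cells of the tdTomato+ library. Right, the log2 ratio of large-vessel over sinusoidal cells with its 95% interval and the range within 2-fold in grey, from which *Kdr* (-1.28) and *Flt4* (-2.06) stand out downwards.

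Within single sinusoidal cells the receptors were found together about as often as their separate shares give. Cells with a UMI of all 7 were 60.9% of the 6664, and cells with none were 0.2701%. Over the 21 pairs, the share of cells with both members over the product of the single shares had a median of 1.01 and ran from 1.01 to 1.04. The pair at the top was *Tek* and *Tie1*, with both in 69.4% of cells where the product gave 66.7%. *Tek* and *Tie1* also had the lowest single shares (86.01% and 77.55%). Low shares leave such a ratio the most room above 1, so the rank of this pair says nothing about a link between them. After thinning to 4000 UMIs per cell, which kept 5714 cells, 30.8% had all 7 and the median over the pairs was 1.01. Depth varies from cell to cell and lifts such ratios, so these values describe co-detection and carry no test.

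T cell droplets of the tdTomato+ library that passed the endothelial limit held the receptors in nearly the proportions of sinusoidal cells. Per droplet the 7 genes had 52.0 UMIs in the 3658 T cell droplets with high endothelial RNA (median 16193.5 UMIs), 46.5 UMIs in sinusoidal cells and 0.463 UMIs in the 2859 T cells with low endothelial RNA (median 8366 UMIs). *Nrp1* made up 30.2% of the receptor UMIs of these T cell droplets (29.96 to 30.37), against 29.1% in sinusoidal cells. *Kdr* made up 26.6% (26.4 to 26.8), against 27.3% in sinusoidal cells, and *Flt4* and *Flt1* 11.7% each, against 11.8% and 11.5%. The remaining shares were 9.20% for *Nrp2*, 6.66% for *Tek* and 3.97% for *Tie1*, against 9.12%, 6.99% and 4.14% in sinusoidal cells. In CPM the levels were lower, since the droplets also held T cell RNA. *Kdr* was at 753.1 CPM and *Nrp1* at 855.2 CPM, while *Cd3e* was at 419.9 CPM and *Ptprc* at 1072 CPM, against 104.3 CPM of *Ptprc* in sinusoidal cells. For every 100 panel counts there were 40.8 receptor counts in the T cell droplets and 41.8 in sinusoidal cells. The 7 receptors were 27.4 to 157.2 times as high in these droplets as in T cells with low endothelial RNA, with *Nrp1* at the low end and *Tie1* at the high end. The gate on endothelial RNA fixes that direction, and 20% of 4536 genes were 2-fold higher and 2.4% lower between the same classes, so it is given as a description. All 7 receptors were detected in 63.3% of these droplets and in 0 of the 2859 T cells with low endothelial RNA. When thinned to 4000 UMIs the shares were 7.31% of T cell droplets with high endothelial RNA and 30.8% of sinusoidal cells. Droplets with high endothelial RNA and markers of NK cells (55) or Kupffer cells (128) had 54.3 and 45.8 receptor UMIs per droplet, with *Nrp1* shares of 29.9% and 28.5%.

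The 46 T cell droplets with high endothelial RNA in the tdTomato- library (median 21273.5 UMIs) had 36.1 receptor UMIs each. *Nrp1* made up 31.5% of them (29.3 to 33.8) and *Kdr* 25.6% (23.5 to 27.8), and the order of the 7 receptors was that of the tdTomato+ T cell droplets. They had 33.4 receptor counts for every 100 panel counts.

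**Figure D4:**
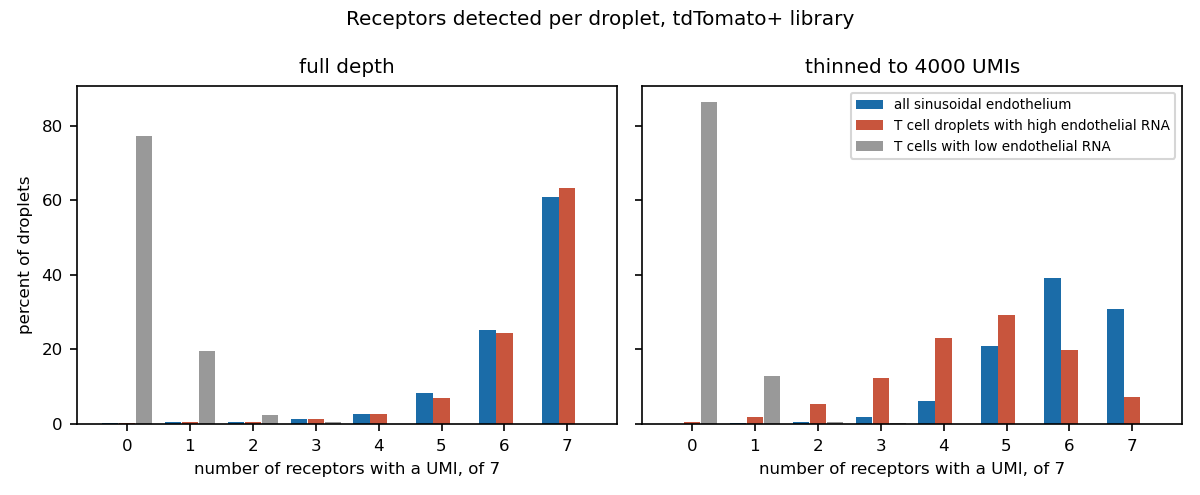
Share of droplets (percent) by the number of the 7 receptors with a UMI in sinusoidal endothelial cells, T cell droplets with high endothelial RNA and T cells with low endothelial RNA of the tdTomato+ library, at full depth (left) and thinned to 4000 UMIs (right). At full depth 60.9% of sinusoidal cells and 63.3% of the T cell droplets had all 7, while 77.1% of T cells with low endothelial RNA had none.

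In T cells with low endothelial RNA the receptors were near background except *Nrp1*. There were 2859 such cells in the tdTomato+ library and 14255 in the tdTomato- library (median 7477 UMIs). *Nrp1* was at 31.2 CPM (29.2 to 33.4) in tdTomato+, against 13.4 CPM (12.8 to 14.1) in tdTomato- T cells, with a UMI in 14.8% (13.5 to 16.2) and 6.43% (6.04 to 6.85) of cells. The log2 ratio was 1.22 here and 5.08 over all T cell droplets, whatever their endothelial RNA. *Kdr* was at 5.37 CPM (4.55 to 6.30) in tdTomato+, against 0.783 CPM (0.637 to 0.954) in tdTomato- T cells. *Nrp2* was at 3.51 CPM and 2.26 CPM, and *Flt1* at 2.86 CPM and 1.58 CPM, in the same order. *Flt4* was at 2.33 and 0.198 CPM, *Tek* at 1.40 and 0.127 CPM and *Tie1* at 0.716 and 0.0712 CPM, again with tdTomato+ T cells named first. With no minimum level, 5 of the 7 were 2-fold or more higher in tdTomato+ T cells, against 3.94% of 24127 genes seen and 3.67% lower. At the minimum of 50 CPM none of the 7 qualified, and 0.383% of 3655 genes were 2-fold higher and 2.46% lower. *Ptprb*, which is not a member and was at 3700 CPM in sinusoidal cells, moved the same way. It was at 13.5 CPM in tdTomato+, against 0.981 CPM in tdTomato- T cells. The summed endothelial panel moved less, at 101.1 CPM in tdTomato+, against 66.3 CPM in tdTomato- T cells. Where this RNA in T cells came from was not tested.

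Each receptor was therefore set against the count that *Ptprb* of the same class predicts if its RNA kept the ratio found in sinusoidal cells. This measure was chosen after the data had been seen, because some panel genes are not confined to endothelium here. In tdTomato- plasmacytoid dendritic cells, which had no *Ptprb* counts, *Clec4g* was at 21.7 CPM and *Cdh5* at 55.7 CPM. *Ehd3* was at 70.6 CPM in tdTomato+, against 54.6 CPM in tdTomato- T cells, and *Cdh5* at 219.6 CPM in tdTomato+, against 157.6 CPM in tdTomato- Kupffer cells. In tdTomato+ T cells with low endothelial RNA the observed count of *Kdr* over the predicted one was 0.964 (0.793 to 1.17), that of *Flt4* 0.962 (0.727 to 1.25), that of *Tek* 0.978 (0.685 to 1.36) and that of *Tie1* 0.846 (0.511 to 1.33). The interval also held 1 for *Flt1* at 1.22 (0.942 to 1.55). It did not for *Nrp1* at 5.25 (4.65 to 5.94) and *Nrp2* at 1.88 (1.49 to 2.36). These ratios depended on the scale. With the planned 8-gene panel only *Nrp1* was above 1, at 2.54 (2.35 to 2.74). *Kdr* was then at 0.467 (0.393 to 0.550) and *Flt1* at 0.588 (0.465 to 0.734). Without *Ehd3* in the panel *Kdr* was at 1.275 (1.064 to 1.518) and *Flt1* at 1.606 (1.261 to 2.022). For *Flt4*, *Tek* and *Tie1* the interval without *Ehd3* held 1. In tdTomato- T cells, with 124 counts of *Ptprb*, the ratio was 31.1 (25.9 to 37.6) for *Nrp1*, 16.7 (13.5 to 20.8) for *Nrp2*, 9.19 (7.31 to 11.6) for *Flt1* and 1.94 (1.47 to 2.54) for *Kdr*. For *Flt4*, *Tek* and *Tie1* the ratios there were 1.13, 1.22 and 1.16, with intervals that held 1. *Flt1* and *Nrp2* were nevertheless low, with a UMI in 0.575% and 1.31% of tdTomato- T cells, and their counts sat in few cells, which these intervals do not cover. The 199 *Flt1* counts came from 82 cells, with 52 in 1 cell. Of them 160 were in 50 cells that clustering placed outside the clusters named T cells, and the 12336 cells inside those clusters had *Flt1* at 0.377 CPM. *Nrp2* had 143 of its 286 counts in cells outside those clusters and *Nrp1* 478 of 1698, with 1.38 and 11.8 CPM left inside. In 3658 T cell droplets with high endothelial RNA of the tdTomato+ library the ratios ran from 0.975 for *Tek* to 1.06 for *Nrp1*. In the 46 such droplets of the tdTomato- library all 7 ratios were under 1, from 0.719 (0.609 to 0.843) for *Flt4* to 0.901 (0.761 to 1.06) for *Nrp2*, and the interval lay below 1 for *Kdr*, *Flt1*, *Flt4*, *Tek* and *Nrp1*.

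**Figure D5:**
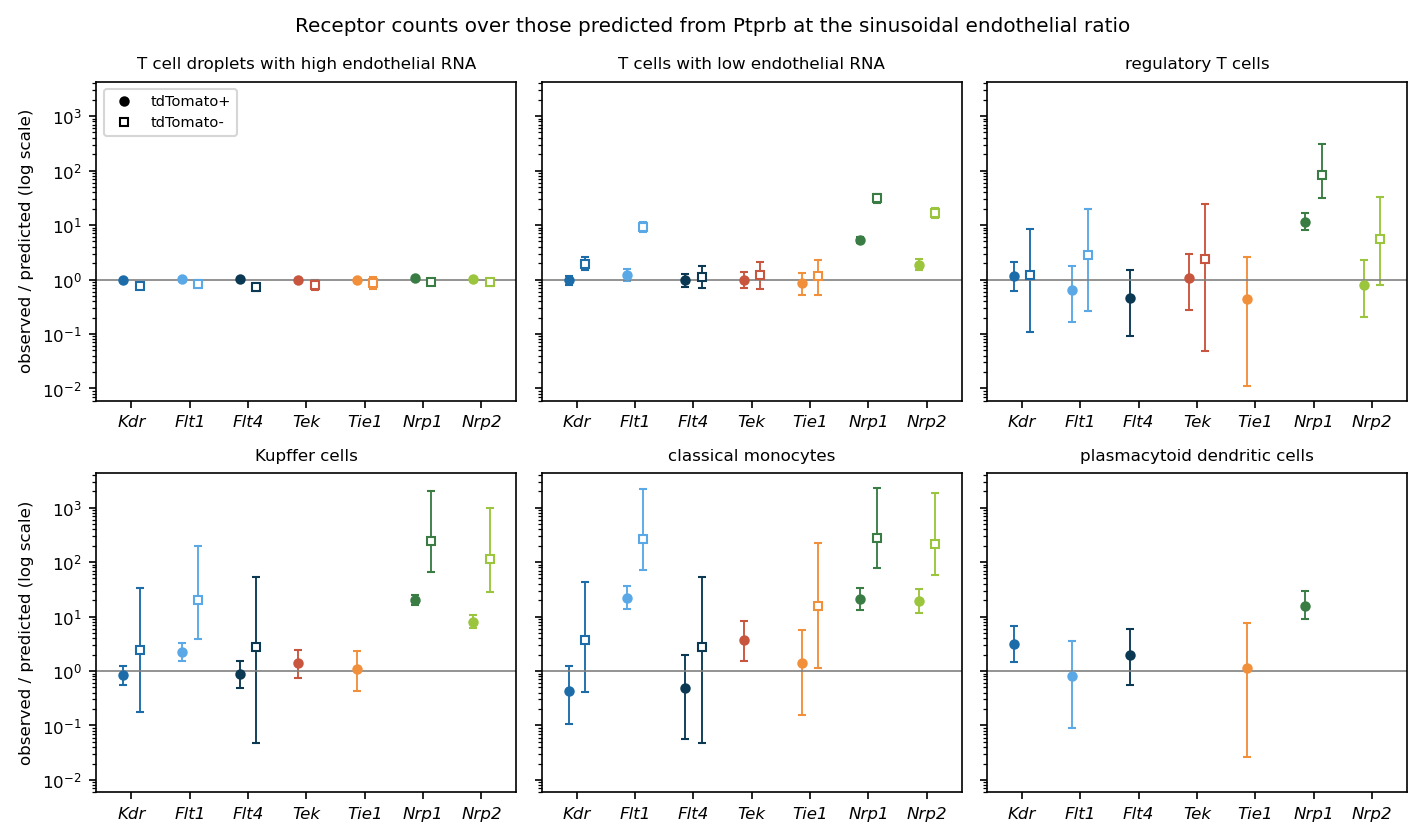
Observed counts of each receptor over the counts predicted from *Ptprb* and the ratio in sinusoidal endothelial cells (log axis, 95% intervals), by class, with the tdTomato+ library before the tdTomato- library. Points are missing where either count is 0, as for tdTomato- plasmacytoid dendritic cells. *Kdr* in tdTomato+ T cells with low endothelial RNA sits at 0.964, *Nrp1* at 5.25.

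Among T cells *Nrp1* was highest in regulatory T cells, in which this coreceptor is a known surface marker of thymus-derived cells. Regulatory T cells were taken by *Foxp3*, which was at 402.8 CPM in tdTomato+, against 297.8 CPM in tdTomato- cells. *Nrp1* was at 201.4 CPM (173.1 to 233.0) in 101 tdTomato+ regulatory T cells and 99.1 CPM (83.6 to 116.5) in 120 tdTomato- ones (log2 ratio 1.02, 0.70 to 1.35). A UMI was present in 57.4% (47.2 to 67.2) of tdTomato+ and 46.7% (37.5 to 56.0) of tdTomato- cells, at median depths of 7953 and 8065 UMIs. Both shares were far above the 3.37% and 1.153% of B cells. *Ptprb* differed too, at 40.1 CPM in tdTomato+, against 2.71 CPM in tdTomato- regulatory T cells, and scaled as above it predicts 15.9 *Nrp1* counts where 181 were seen in tdTomato+ cells and 1.76 where 146 were seen in tdTomato- cells. *Kdr* in tdTomato+ regulatory T cells was at 18.9 CPM (17 counts in 8 cells), against 1.36 CPM in tdTomato- ones. Its count over the one predicted from *Ptprb* was 1.14 (0.603 to 2.09). Over the count predicted from the planned 8-gene panel it was 2.23 (1.23 to 3.84). Without *Ehd3* in the panel it was 4.56 (2.33 to 8.675), so the reading of *Kdr* here depended on the scale. Alpha-beta T cells had *Nrp1* at 23.8 CPM (21.6 to 26.1) in the tdTomato+ library and 13.6 CPM (12.25 to 14.95) in the tdTomato- library. Gamma-delta T cells had it at 30.2 CPM (20.9 to 42.2) in the tdTomato+ library and 10.46 CPM (9.36 to 11.7) in the tdTomato- library.

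Kupffer cells, the resident macrophages of the sinusoids, expressed both neuropilins and hardly any receptor kinase. *Nrp1* was at 129.6 CPM (121.2 to 138.4) in 506 tdTomato+, against 111.2 CPM (96.7 to 127.3) in 182 tdTomato- Kupffer cells (log2 ratio 0.22, 0.0018 to 0.44), with a UMI in 64.6% and 49.5% of cells at median depths of 11834 and 8995 UMIs. After thinning to 2000 UMIs, with the classes assigned again from the thinned counts, the shares were 25.2% and 19.0%. The thinned classes need not hold the same cells. *Nrp2* was at 16.5 CPM (13.6 to 19.9) in tdTomato+, against 16.3 CPM (11.1 to 23.2) in tdTomato- cells (log2 ratio 0.018, -0.57 to 0.64). *Flt1* was at 5.86 CPM and *Kdr* at 5.12 CPM in tdTomato+ Kupffer cells, against 3.69 CPM and 1.05 CPM in tdTomato- ones. The count over the one predicted from *Ptprb* in tdTomato+ Kupffer cells was 19.9 (16.2 to 24.7) for *Nrp1*, 8.10 (6.14 to 10.7) for *Nrp2*, 2.267 (1.531 to 3.301) for *Flt1* and 0.840 (0.555 to 1.25) for *Kdr*. With the planned 8-gene panel it was 4.217 (3.884 to 4.575) for *Nrp1* and 1.719 (1.408 to 2.08) for *Nrp2*. For *Flt1* it was then 0.4809 (0.3423 to 0.6575) and for *Kdr* 0.1781 (0.1236 to 0.2486), so the reading of *Flt1* depended on the scale. *Tek* and *Tie1* had no counts in tdTomato- Kupffer cells, where 3 counts are 1.58 CPM. *Plxna4* and *Plxnd1*, plexins that signal with neuropilins, were at 65.9 and 85.1 CPM in tdTomato+, against 101.7 and 59.0 CPM in tdTomato- Kupffer cells.

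Monocytes added *Flt1*, known as the receptor through which monocytes migrate to VEGF-A. In classical monocytes *Flt1* was at 39.9 CPM (32.0 to 49.2) in 140 tdTomato+, against 26.9 CPM (21.7 to 33.0) in 192 tdTomato- cells, with a UMI in 25.7% and 20.3% of cells (median 14566 and 14312 UMIs). *Nrp1* was at 94.9 CPM (82.4 to 108.6) in tdTomato+, against 72.6 CPM (63.9 to 82.3) in tdTomato- classical monocytes, and *Nrp2* at 27.2 CPM (20.8 to 35.1) and 17.6 CPM (13.4 to 22.6) in the same order. *Kdr* stood at 4 counts in tdTomato+ and 3 counts in tdTomato- classical monocytes, so that *Flt1* rather than *Kdr* was the VEGF receptor kinase detected in them. *Tek* had 9 counts (4.09 CPM) in tdTomato+ classical monocytes and none in tdTomato- ones, where the 95% interval puts the log2 ratio above 1.61. *Ptprb* was at 10.4 CPM in tdTomato+, against 0.586 CPM in tdTomato- classical monocytes, and the *Tek* count was 3.70 times (1.51 to 8.30) the one predicted from it in tdTomato+ cells. In nonclassical monocytes *Flt1* was at 25.3 CPM (13.8 to 42.4) in 55 tdTomato+, against 98.5 CPM (60.9 to 150.5) in 22 tdTomato- cells. These rest on 14 counts in tdTomato+ and 21 counts in tdTomato- cells, where they came from 5 of the 22 cells.

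Plasmacytoid dendritic cells, in which NRP1 is known as the human marker BDCA-4, had *Nrp1* at 90.9 CPM (73.6 to 111.0) in 81 tdTomato+, against 93.7 CPM (81.4 to 107.4) in 173 tdTomato- cells (log2 ratio -0.044, -0.41 to 0.31), with a UMI in 60.5% and 56.1% of cells. Over all droplets of the class, whatever their endothelial RNA, that log2 ratio was 1.35. They also had *Kdr*, at 17.0 CPM (10.1 to 26.9) in tdTomato+, against 17.2 CPM (12.2 to 23.6) in tdTomato- cells (log2 ratio -0.014, -0.91 to 0.83). A *Kdr* UMI was in 18.5% (10.8 to 28.7) of tdTomato+ and 10.98% (6.74 to 16.6) of tdTomato- plasmacytoid dendritic cells, against 1.498% and none in B cells, at median depths of 13877 and 13416 UMIs against 6268 and 5768 UMIs. In the tdTomato- cells the 38 *Kdr* counts came with 0 counts of *Ptprb*, *Flt1*, *Nrp2*, *Tek* and *Tie1* each and 1 of *Flt4*. Type 1 conventional dendritic cells had *Nrp1* at 75.4 CPM (61.2 to 92.0) in 51 tdTomato+, against 60.4 CPM (46.6 to 77.0) in 38 tdTomato- cells. Neutrophils had it at 25.2 CPM (12.1 to 46.3) in 74 tdTomato+, against 13.96 CPM (7.21 to 24.4) in 178 tdTomato- cells. B cells and NK cells stayed at or below 8.65 CPM for each of the 7 receptors in both libraries.

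Of the ligands, some were detected in the sorted cells and others hardly or not at all. *Vegfa*, the ligand of *Kdr* and *Flt1*, was at 80.5 CPM (55.1 to 113.6) in tdTomato+, against 88.4 CPM (69.7 to 110.7) in tdTomato- neutrophils, and at 10.2 CPM in sinusoidal cells. *Vegfb*, a ligand of *Flt1*, was at 61.1 CPM, *Vegfc* at 44.3 CPM, *Angpt2* at 32.4 CPM and *Sema3f*, a ligand of *Nrp2*, at 132.2 CPM in sinusoidal cells. *Sema3d* was at 74.5 CPM in sinusoidal cells. *Angpt1*, the activating ligand of *Tek*, was at 0.814 CPM in sinusoidal cells and at 12.5 CPM (17 counts) in tdTomato+, against 34.6 CPM (20 counts) in tdTomato- NK cells and ILC1. In all, 31 of the 46 pathway genes reached 10 CPM in sinusoidal cells, macrophages or T cells of either library and 15 did not, the 15 including 5 of 7 class 3 semaphorins and 2 of 5 VEGF family ligands.

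Of the receptors' partners, adaptors and response genes, some reached 10 CPM in sinusoidal cells alone and others also, or instead, in T cells or Kupffer cells. *Rasip1*, a regulator of endothelial junctions and lumens, was at 165.7 CPM and *Nos3*, the endothelial nitric oxide synthase, at 78.4 CPM in sinusoidal cells, and both were under 10 CPM in T cells and Kupffer cells of both libraries. *Itgb1*, an integrin subunit, was at 441.6 CPM in sinusoidal cells, *Itgav* at 57.8 CPM and *Itgb3* at 13.8 CPM. *Plcg1*, the phospholipase that binds phosphorylated VEGFR2, was at 89.9 CPM there, the adaptor *Gab1* at 71.9 CPM, *Pik3r1*, the regulatory subunit of PI3 kinase, at 142.8 CPM and *Gipc1*, which binds the tail of neuropilin, at 59.5 CPM. *Klf2*, a transcription factor induced by flow, was at 790.2 CPM in sinusoidal cells, *Klf4* at 168.7 CPM, *Foxo1*, which is restrained by TIE2 signalling, at 151.3 CPM and *Rcan1* at 72.5 CPM. *Klf2* in T cells with low endothelial RNA was at 1621 CPM in tdTomato+, against 1775 CPM in tdTomato- cells. *Plxna1* was at 16.4 CPM in sinusoidal cells and at 25.0 CPM in tdTomato+, against 29.0 CPM in tdTomato- Kupffer cells. *Sh2d2a*, an adaptor first known from T cells, reached 10 CPM in T cells alone of these 3 cell types, at 182.4 CPM in tdTomato+, against 217.4 CPM in tdTomato- cells. *Dok2*, an adaptor that binds TIE2, was at 119.7 CPM in tdTomato+, against 158.3 CPM in tdTomato- T cells and was under 10 CPM in sinusoidal cells.

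Across 27 classes of both libraries, likeness of pattern was read as the correlation of log levels. Among 7737 genes, *Plxna2* was closest to *Kdr* (Pearson r = 0.98), *Layn* to *Flt1* (0.96), *Fam124a* to *Flt4* (0.99), *Nfib* to *Tek* (0.99), *Fat4* to *Tie1* (0.99), *Plxnd1* to *Nrp1* (0.93) and *Fzd4* to *Nrp2* (0.95). *Flt4* was itself among the 3 closest to *Kdr* (0.97) and *Flt1* among the 3 closest to *Nrp2* (0.94). Over the 20 immune classes alone the closest to *Nrp1* were *Fbxo6* (0.88), *Rab29* (0.85) and *Rgs10* (0.85). The classes share 2 libraries and differ in depth and endothelial RNA, so these correlations across classes describe likeness only.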

How the data were processed

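Libraries were made with the Chromium 5′ v3 kit from 1 sort each, and per the file headers and the submitters' notes the authors ran Cell Ranger 10.0.0 and used mm10; the annotation release is not given in the sources used here. The deposited matrices hold raw UMI counts per gene and filtered barcode, with 203366009 UMIs (median 8955 per barcode) for tdTomato+ and 156771260 (median 7128) for tdTomato-. T cell receptor contig tables were also deposited and were not used.

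Barcodes needed 300 genes or more and a mitochondrial share of no more than 10%, which left 17509 tdTomato+ and 18173 tdTomato- cells. Doublets were not removed, since droplets with RNA of several cell types are described as such. Counts were summed per class and library and divided by the summed UMIs of the class (CPM). UMI counts of 5′ ends were not scaled by gene length. Classes came from marker limits in CPM (at least 3 counts of the list, 5 for the endothelial panel): 1500 for endothelial and large-vessel lists, 500 for T cells and classical monocytes, 2000 for Kupffer cells, B cells and neutrophils, 1000 for plasmacytoid dendritic cells, 250 for NK cells and type 1 dendritic cells and 150 for nonclassical monocytes (at least 2 counts); low endothelial RNA meant under 500 CPM. These limits were set after the marker distributions, but not the receptors, had been seen. A difference was called at 2-fold with an interval that left out equality, among genes of at least 50 CPM in either class. With 1 library per sort no test was possible.

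The 7 receptors and the gene lists were chosen with earlier results of these data known. The text names the 7 receptors and, of the 46 pathway genes, those at 10 CPM or more in sinusoidal cells, Kupffer cells or T cells; the others are counted. The 15 alternatives listed and 4 added after the data had been seen varied cell filters, thinning, zone and class limits, clustering in place of limits (a cluster whose leading genes went against its name stayed unnamed), the panel and the scaling; their effect is given at the end. Interval and call scripts were tested on simulated data. Gene positions are from GENCODE M21 (GRCm38), in which 32012 of 33696 gene IDs were found, and promoters from RefSeq (GRCm38.p6), matched for 7 of 7. Clustering used scanpy 1.11.5 with leidenalg 0.10.2, intervals scipy 1.17.1, figures matplotlib 3.10.9 and tables pandas 2.3.3 and numpy 2.4.6, under Python 3.11.15.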

Additional observations from a re-analysis of the deposited data

How the results depend on the processing

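No paired analysis was possible because each sort had 1 library and no result comes from a test between replicates. Of 231 recomputations of 33 summary values under 15 listed alternatives and 4 chosen after the data had been seen, 213 stayed within 1.5 times the main count (1.1 times for co-detection) and 18 did not. Of the 225 that are whole numbers of receptors, 201 were equal to the main one. For single receptors 1226 of 1461 stayed within the main 95% interval, 213 left it and 22 changed direction. Clustering in place of marker limits gave no class of B cells, NK cells, classical monocytes or plasmacytoid dendritic cells, so those values were not recomputed. Across the alternatives the pericentral over periportal log2 ratio ran from -0.45 to -0.30 for Flt4, from 0.35 to 0.49 for Tek and from -0.24 to -0.21 for Nrp1. That of Nrp2, 0.11, was -0.0362 with zone limits of 3 counts and 3 times the other list and -0.0627 between the outermost of 5 bins.

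The number of the 7 receptors at 10 CPM or more was 1 against 0 in tdTomato+ NK cells and 0 against 1 in tdTomato- T cells with low endothelial RNA after thinning to 2000 UMIs. Classes were assigned again from the thinned counts. With clusters it was 2 against 1 in tdTomato+ T cells with low endothelial RNA and 3 against 2 in tdTomato+ Kupffer cells, where Kdr was at 12.2 CPM against 5.12 CPM. After thinning it was 3 against 2 in tdTomato+ plasmacytoid dendritic cells. Clusters lowered Flt1 in tdTomato- T cells with low endothelial RNA to 0.43 CPM, against 1.58 CPM with marker limits. Over all droplets of a class, whatever their endothelial RNA, 7 against 5 receptors were 2-fold higher in tdTomato+ T cells, and the tdTomato+ over tdTomato- log2 ratio of Nrp1 was 5.08 against 1.22 in T cells, 4.74 against 1.07 in B cells, 2.39 against 0.39 in classical monocytes, 1.35 against -0.04 in plasmacytoid dendritic cells and 1.102 against 0.22 in Kupffer cells. The changes below concern the number of receptors above the count predicted from endothelial RNA, for which the 8-gene panel was the planned scale. With Stab2 in the panel it was 1 against 0 in tdTomato- T cells with low endothelial RNA, 1 against 2 in tdTomato- Kupffer cells and 2 against 1 in tdTomato- plasmacytoid dendritic cells. Without Clec4g it was 0 against 1 in tdTomato+ T cells with low endothelial RNA, and 1 against 2 in tdTomato+ regulatory T cells and tdTomato- Kupffer cells. Without Ehd3 it was 2 against 1 in tdTomato+ and 3 against 0 in tdTomato- T cells with low endothelial RNA, 3 against 2 in tdTomato+ regulatory T cells, and 2 against 1 in tdTomato- B cells. With Ptprb alone it was 3 against 0 in tdTomato- T cells with low endothelial RNA, 1 against 2 in tdTomato+ regulatory T cells, 3 against 1 in tdTomato+ and 3 against 2 in tdTomato- Kupffer cells, 4 against 3 in tdTomato- classical monocytes, and 2 against 1 in plasmacytoid dendritic cells of both libraries and in tdTomato- B cells.

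The log2 of observed over predicted counts changed sign as follows. Without Ehd3 in tdTomato+ T cells with low endothelial RNA it was 0.3503 for Kdr (-1.0997 with the panel), 0.6839 for Flt1 (-0.7661), 0.3466 for Flt4 (-1.1034), 0.3711 for Tek (-1.0789) and 0.1611 for Tie1 (-1.2889), and in the tdTomato- cells 1.1941 for Flt1 (-1.0215). With Ptprb it was 0.2809 for Flt1 in the tdTomato+ cells, and 0.9521 for Kdr, 3.1998 for Flt1, 0.1693 for Flt4, 0.2869 for Tek and 0.2103 for Tie1 in the tdTomato- cells. With Ptprb it was also 0.2769 for Kdr in tdTomato- regulatory T cells, 1.1811 for Flt1, 0.4897 for Tek and 0.1437 for Tie1 in tdTomato+ Kupffer cells, 1.2769 for Kdr, 4.3247 for Flt1 and 1.4797 for Flt4 in tdTomato- Kupffer cells, and 0.0162 for Flt4 in tdTomato+ T cell droplets with high endothelial RNA. The panel counts of the T cells with low endothelial RNA were mostly Ehd3, as given in the report.

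Levels under about 10 CPM rest on few counts in classes of under 200 cells, and nothing here measures variation between animals.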

Other observations

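Droplets with markers of other liver cells also held the receptors in the tdTomato+ library. In 75 droplets with mesenchymal markers Kdr was at 529.9 CPM, Nrp1 at 488.3 CPM and Flt4 at 194.1 CPM (173.0 to 217.0), with the endothelial panel at 4051 CPM. In 74 droplets with lymphatic markers Flt4 was at 170.5 CPM (154.7 to 187.4) and Kdr at 425.3 CPM (400.2 to 451.7), with the panel at 3338 CPM. In the tdTomato- library 7 droplets with mesenchymal markers and 4 with lymphatic markers had the same counts, 17 of Kdr and 8 of Flt4. Whether these sets share droplets was not tested, nor whether the droplets with lymphatic markers hold lymphatic endothelium. For comparison, sinusoidal cells had Flt4 at 663.4 CPM with the panel at 13410 CPM. In 59 droplets with hepatocyte markers Kdr was at 197.1 CPM and the panel at 2146 CPM. In 40 such hepatocyte droplets of the tdTomato- library Kdr, Flt1, Flt4, Tek and Tie1 had no counts, Nrp1 had 2 and Nrp2 had 1, with the panel at 5.94 CPM.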
